A study of Mus musculus with 9 samples.

Results

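The genes described here are 10 mouse genes of nucleic acid sensing: the sensor genes Ddx58, Ifih1, Dhx58, Tlr3, Zbp1 and Eif2ak2, the adaptor genes Mavs and Ticam1, the RNA editing gene Adar and the interferon gene Ifnb1. They were chosen by name, and every probe set (a group of short array probes for a transcript) whose single gene symbol is one of these names was taken. This gave 21 probe sets for the 10 genes, out of 34945 probe sets with 1 symbol that cover 18193 genes. All 9 arrays come from 3T3-L1 cells, a mouse preadipocyte line that forms fat cells in culture and that was already mature when it received lentivirus. The virus carried a scrambled control hairpin, hairpin 1 against Ebf1 or hairpin 2 against Ebf1, with 3 arrays for each, and Ebf1 is a transcription factor that fat cells and B cells use. Controls and knockdowns alike went through 3 to 4 rounds of infection and puromycin at 5 µg/ml, which removes cells without the virus, for 8 days or longer, so the scrambled arrays show transduced cells and no untransduced cells were compared. The repeats are numbered in the titles and are not said to be separate cultures. The p-values then set differences between groups only against how far repeat arrays lay apart, and that distance may be technical.

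Cells detect viral or misplaced nucleic acid with a small set of proteins. RIG-I, MDA5 and LGP2 (genes Ddx58, Ifih1 and Dhx58) are related helicases that bind double-stranded RNA in the cytosol, and RIG-I and MDA5 signal through MAVS on mitochondria, while TLR3 detects double-stranded RNA in endosomes and signals through TRIF (gene Ticam1). Both routes lead to transcription of Ifnb1, which encodes the secreted cytokine interferon beta, and interferon in turn raises transcription of many of the sensors. ZBP1 binds nucleic acid in the Z conformation and can start cell death, PKR (gene Eif2ak2) stops translation when it meets double-stranded RNA, and ADAR1 (gene Adar) edits such RNA so that it is less readily detected.

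Promoter sequences are shown because interferon raises transcription of many of the sensor genes. A part of interferon in the changes reported here was not tested. RefSeq sequence of build GRCm38.p6, 250 bases before to 50 bases after each gene start, was matched for 8 of the 10 genes in 10 windows; Dhx58 and Zbp1 had no entry. The core letters of the interferon-stimulated response element are GAAA, any 2 bases and GAAA again, on either strand. They were found in 3 of the 10 windows (Ifih1, Ddx58 and Eif2ak2) and in 3.44% of all 32851 windows. Positions below are counted from the gene start as 1, on the strand of the gene, and the capitals mark the match:
Ifih1, bases 21 to 50, chr2:62646206-62646235, minus strand: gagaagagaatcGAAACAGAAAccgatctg
Ddx58, bases -8 to 22, chr4:40239804-40239833, minus strand: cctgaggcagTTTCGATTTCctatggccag
Eif2ak2, bases 9 to 38, chr17:78882535-78882564, minus strand: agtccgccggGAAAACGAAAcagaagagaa
In Ddx58 the match lies on the strand opposite to the gene. The shorter letters AANNGAAA are recognised by interferon regulatory factors and overlap the longer core. They were found in 6 of the 10 windows (Adar, Ddx58, Eif2ak2, Ifih1, Ifnb1 and Tlr3), against 23.9% of all windows.

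Upstream of Ifnb1, 3 matches to AANNGAAA stood next to 1 match to the NF-kappa B letters (GGG, any 3 bases, TTCC, searched on both strands), all in capitals here:
Ifnb1, bases -165 to -96, chr4:88522890-88522959, minus strand: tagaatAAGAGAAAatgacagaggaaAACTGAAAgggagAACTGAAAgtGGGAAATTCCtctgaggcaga
The NF-kappa B letters were found in 2 of the 10 windows (Ifnb1 and Tlr3) and in 5.56% of all windows. CCCNNGGG, a core that Ebf proteins recognise and that reads the same on both strands, was in 0 of the 10 windows and in 13.7% of all windows. A match is a description of letters in these windows and no measurement of binding.

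Values are deposited log2 signals, 1 per probe set and array. Where a gene has several probe sets, the one with the highest mean was used, and genes were tested when that mean over 9 arrays reached 5.72, the 30th percentile of all genes. All 10 genes passed, but Ifnb1 passed only because of its scrambled arrays. Changes were tested with limma over 12735 genes, with p-values adjusted over all of them by the Benjamini-Hochberg method and a call at 0.05. The targeted gene Ebf1 read 10.19 with scrambled, 9.44 with hairpin 1 and 8.94 with hairpin 2 on average on the brightest of its 5 probe sets (limma adjusted p = 0.000102 and 2.98e-07 against scrambled); 3 of the 5 were called lower with hairpin 1 and 4 with hairpin 2. The adipocyte markers Adipoq and Fabp4 were present at group means of 14.80 to 14.93, close to the array maxima of 14.96 to 14.9998, while Pparg fell with both hairpins (-0.25 and -0.56), Cidec with hairpin 2 (-0.25), and Lep lay below the signal filter. Over all genes tested, hairpin 1 moved 33.0% (9.23% lower, 23.7% higher) and hairpin 2 moved 34.8% (13.3% lower, 21.5% higher). Quantile normalization moved the share of hairpin 1 calls that were rises from 72% to 59.1%.

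Most sensor genes fell with both hairpins and fell further with hairpin 2. Of the 10 genes, hairpin 1 gave 7 falls and 1 rise, beside 9.23% and 23.7% over all genes tested (33.0% called either way), with Ifnb1 among the falls. Hairpin 2 gave 8 falls and 1 rise, beside 13.3% and 21.5% (34.8% called either way), again with Ifnb1. Ifnb1 had to be high in scrambled to be tested at all, and without it the falls were 6 and 7 of 9. The median log2 fold change of these 9 was -0.70 with hairpin 1 and -1.67 with hairpin 2, where the median of all genes tested was 0.07 and 0.02. Between the hairpins, 7 genes were lower with hairpin 2 than with hairpin 1 and 0 higher, where 17.4% of all genes were lower and 11.6% higher (29.1% called either way). Ddx58, Ifih1, Dhx58, Tlr3, Zbp1 and Adar, 6 of the 10, were lower in all 3 comparisons, as were 1.86% of all genes tested. With hairpin 2, 7 genes were lower by over 1 log2 unit, the same 6 and Eif2ak2, against 1.41% of all genes. The arrays of a hairpin did not overlap the scrambled arrays for 8 genes with hairpin 1 (43.4% of all genes) and for 9 with hairpin 2 (49.4%), or for 7 and 8 without Ifnb1, and the hairpins did not overlap each other for 7 (35.6%). Both hairpin comparisons share the 3 scrambled arrays. Bulk RNA cannot tell fewer expressing cells from less RNA per cell.

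**Figure D1:**
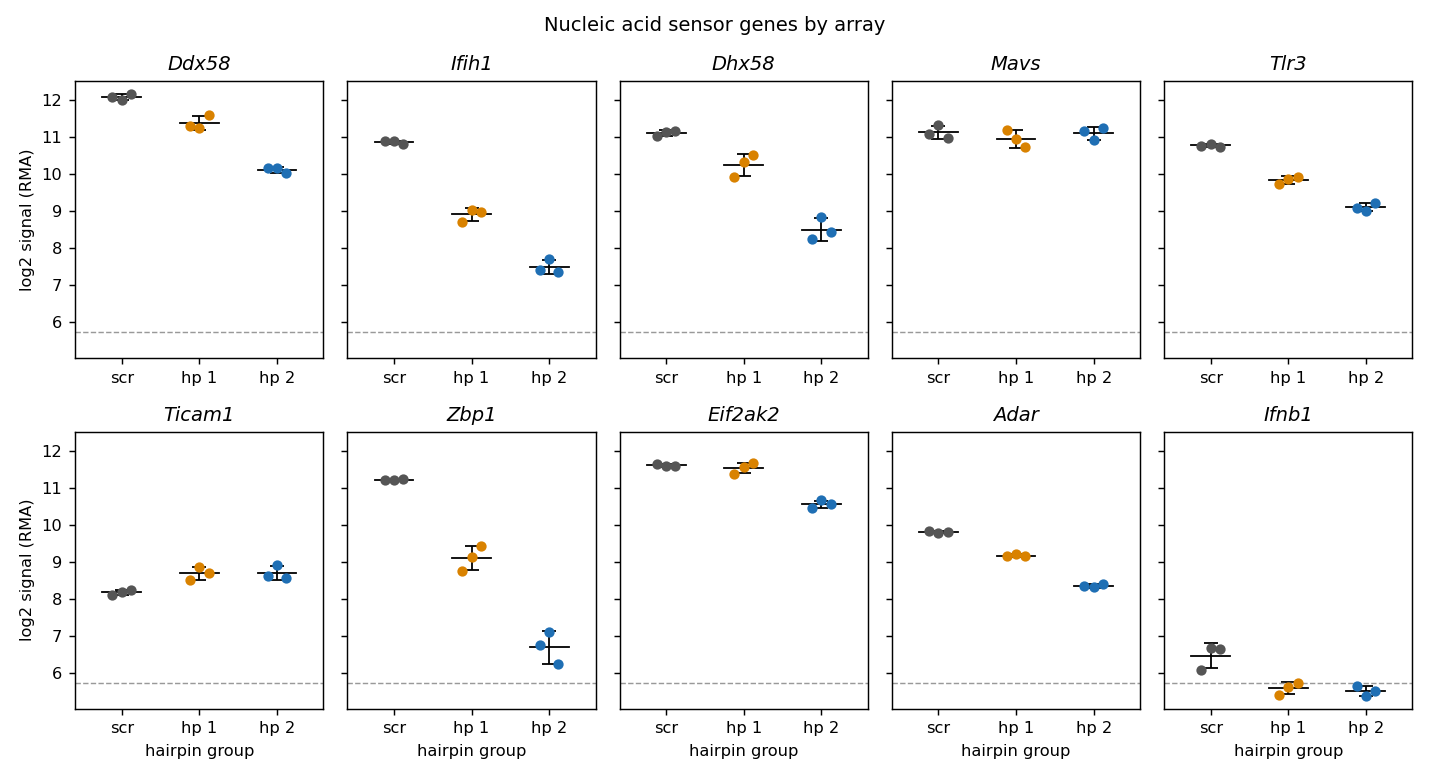
Log2 signal of the 10 genes on their brightest probe set, with scrambled (scr), hairpin 1 (hp 1) and hairpin 2 (hp 2) on the horizontal axis; points are arrays, long bars are group means, capped bars are SD (n = 3) and the dashed line is the signal filter of 5.72. Ddx58, Ifih1, Dhx58, Tlr3, Zbp1 and Adar step down from group to group without overlap, Ticam1 is higher with both hairpins, Mavs overlaps in all groups and Ifnb1 lies near the dashed line.

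Among the cytosolic RNA helicases, Ifih1, the gene of MDA5, which prefers long double-stranded RNA, fell most. Its scrambled arrays read 10.88, 10.88 and 10.80, hairpin 1 arrays 8.71, 9.02 and 8.98, and hairpin 2 arrays 7.40, 7.71 and 7.36. The 3 groups did not overlap and were ordered scrambled, hairpin 1, hairpin 2. The fall was 3.86-fold with hairpin 1 (-1.95 on the log2 scale with SE 0.109; limma adjusted p = 2.55e-09) and 10.3-fold with hairpin 2 (-3.37, limma adjusted p = 1.06e-12), and hairpin 2 lay 1.42 log2 units under hairpin 1 (difference -1.42, limma adjusted p = 1.38e-07).

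Ddx58 encodes RIG-I, which binds the 5′ triphosphate ends of viral RNA. It read 12.07, 12.003 and 12.17 with scrambled, 11.30, 11.25 and 11.59 with hairpin 1 and 10.17, 10.15 and 10.02 with hairpin 2, again with no overlap. Hairpin 1 lowered it 1.63-fold (-0.70 with SE 0.0889; limma adjusted p = 1.97e-05) and hairpin 2 lowered it 3.92-fold (-1.97, limma adjusted p = 6.26e-11). Its 3 probe sets all fell with each hairpin, but by different amounts. Probe set 1456890_at changed by -1.70 and -2.56 log2 units, and 1446457_at by -0.61 and -1.44.

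Dhx58 encodes LGP2, which lacks the signalling domains of the other 2 helicases and tunes their activity. Its arrays read 11.03, 11.14 and 11.17 with scrambled, 9.93, 10.31 and 10.51 with hairpin 1 and 8.23, 8.83 and 8.43 with hairpin 2. Every hairpin 2 array was under every hairpin 1 array, and those under every scrambled array. The falls were 1.81-fold (-0.86 with SE 0.146; limma adjusted p = 0.000325) and 6.12-fold (-2.61, limma adjusted p = 9.54e-10). Of its 3 probe sets, 1420769_at had the lowest signal, 6.64 with scrambled, 5.60 with hairpin 1 and 5.32 with hairpin 2, both hairpin means under the filter, and on it the difference between hairpins did not pass (-0.28, limma adjusted p = 0.0796 over all probe sets).

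Neither adaptor gene of these routes was called lower. Mavs, which encodes the mitochondrial adaptor of RIG-I and MDA5, read 11.07, 11.31 and 10.98 with scrambled, 11.20, 10.93 and 10.72 with hairpin 1 and 11.15, 10.91 and 11.23 with hairpin 2 on its brightest probe set, and the groups overlapped. The differences were -0.17 with hairpin 1 (95% confidence interval -0.42 to 0.08, limma adjusted p = 0.291) and -0.03 with hairpin 2 (-0.28 to 0.23, adjusted p = 0.904). The probe sets of Mavs disagree: 1439185_x_at, the one just given, carries a suffix for probes that may also bind other transcripts, while 1451176_at rose by 0.52 with hairpin 1 and by 0.33 with hairpin 2 (limma adjusted p = 0.00426 and 0.0464 over all probe sets). With array weights the brightest probe set was called lower with hairpin 1 (-0.36, limma adjusted p = 0.00094), as it was without the first repeat of hairpin 1 (-0.30, limma adjusted p = 0.0436).

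Ticam1, the gene of the TLR3 adaptor TRIF, rose with both hairpins. It read 8.10, 8.18 and 8.23 with scrambled, 8.51, 8.85 and 8.68 with hairpin 1 and 8.61, 8.92 and 8.56 with hairpin 2. All 6 knockdown arrays were above all 3 scrambled arrays, while the 2 hairpins overlapped. The rise was 1.42-fold with hairpin 1 (0.51 with SE 0.112; limma adjusted p = 0.00243) and 1.44-fold with hairpin 2 (0.53, limma adjusted p = 0.00147). Between the hairpins the difference was 0.02 (95% confidence interval -0.22 to 0.26).

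Tlr3, the endosomal receptor gene, fell while its adaptor gene rose. On its brightest probe set it read 10.77, 10.82 and 10.72 with scrambled, 9.72, 9.87 and 9.91 with hairpin 1 and 9.07, 9.01 and 9.23 with hairpin 2. The groups did not overlap. The falls were 1.92-fold (-0.94 with SE 0.0871; limma adjusted p = 7.48e-07) and 3.18-fold (-1.67, limma adjusted p = 4.09e-10). The other probe set, 1422781_at, changed by -1.55 and -1.88 log2 units, and its difference between hairpins did not pass (-0.33, limma adjusted p = 0.18 over all probe sets).

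Zbp1, the sensor of Z-form nucleic acid, had the largest fall of the 10 genes with each hairpin. It read 11.20, 11.21 and 11.23 with scrambled, 8.76, 9.13 and 9.41 with hairpin 1 and 6.74, 7.10 and 6.22 with hairpin 2. The SD of the scrambled arrays was 0.0166 log2 units, against 0.443 for hairpin 2, and no groups overlapped. Signal with hairpin 1 was 23.1% of scrambled (-2.11 on the log2 scale with SE 0.18; limma adjusted p = 3.13e-07) and with hairpin 2 4.35% (-4.52, limma adjusted p = 1.29e-11). The second probe set, 1429947_a_at, changed by -2.14 and -4.28.

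Eif2ak2, the gene of the translation-blocking kinase PKR, fell clearly with hairpin 2, and its probe sets disagree for hairpin 1. On the brightest it read 11.64, 11.59 and 11.57 with scrambled, 11.37, 11.56 and 11.66 with hairpin 1 and 10.44, 10.65 and 10.54 with hairpin 2. Hairpin 1 overlapped scrambled and hairpin 2 lay under both. The difference with hairpin 1 was -0.07 (95% confidence interval -0.24 to 0.10, limma adjusted p = 0.56), and hairpin 2 was lower by 1.06 than scrambled (difference -1.06, SE 0.0815, limma adjusted p = 4.81e-08) and by 0.99 than hairpin 1 (-0.99, limma adjusted p = 2.93e-07). The other 2 probe sets, 1422006_at and 1440866_at, fell with hairpin 1 (-0.34 and -0.54, limma adjusted p = 0.0449 and 0.016 over all probe sets), and the mean of all 3 was called lower (-0.32, limma adjusted p = 0.0162). With hairpin 2 the 3 probe sets changed by -1.06, -1.33 and -1.58, and all were called.

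On the brightest probe set of each gene, Adar had the smallest spread of the 10 genes, with no group SD above 0.0462. It read 9.82, 9.77 and 9.81 with scrambled, 9.14, 9.20 and 9.14 with hairpin 1 and 8.33, 8.30 and 8.39 with hairpin 2, and the groups did not overlap. The falls were 1.56-fold (-0.64 with SE 0.08; limma adjusted p = 1.83e-05) and 2.75-fold (-1.46, limma adjusted p = 7.46e-10). Adar makes a long, interferon-induced protein and a short constitutive one from different starts, and the table of gene names does not say which transcript a probe set reads. All 3 probe sets fell with hairpin 2, with changes from -1.28 to -1.77, while 1439276_at did not pass with hairpin 1 (-0.27, limma adjusted p = 0.248 over all probe sets). The small spread was not shared by all of them: the hairpin 1 SD was 0.236 on 1425405_a_at and 0.276 on 1439276_at.

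Ifnb1, the ligand gene at the end of both routes, read 6.06, 6.66 and 6.64 with scrambled, 5.40, 5.62 and 5.73 with hairpin 1 and 5.64, 5.36 and 5.49 with hairpin 2. Both knockdown groups lay under scrambled without overlap, and overlapped each other. The differences as measured were -0.87 (limma adjusted p = 0.000206) and -0.96 (limma adjusted p = 5.69e-05). Both knockdown means, 5.58 and 5.497, lay under the filter of 5.72, so the sizes are uncertain and no difference between the hairpins is read there. Because only its scrambled mean of 6.45 reached the filter, its call adds nothing to the count of falls. It was not tested with the filter at the 50th percentile. Of 9 listed interferon alpha and related genes, 6 were measured, and their group means ran from 4.51 to 6.19. Ifna1, the only one of them over the filter, did not pass with either hairpin (0.22 and 0.06).

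**Figure D2:**
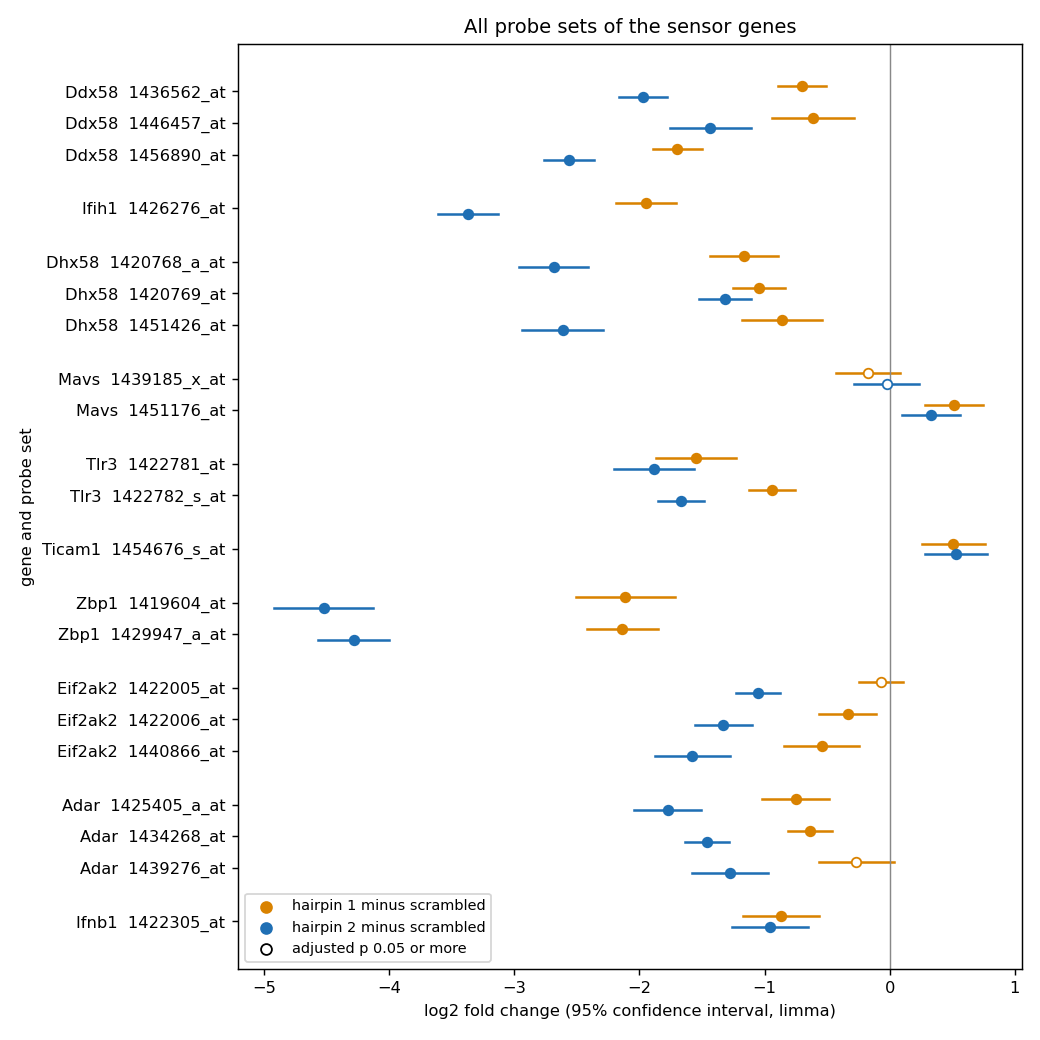
Log2 fold change against scrambled for each of the 21 probe sets, with 95% confidence intervals from limma over all probe sets; orange is hairpin 1, blue is hairpin 2 and open circles did not pass. Hairpin 2 shows 18 falls and 2 rises, and hairpin 1 shows 16 and 2.

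By probe set, hairpin 1 lowered 16 of 21 and raised 2, and hairpin 2 lowered 18 and raised 2. In the fit over all 45037 probe sets 4.64% were lower and 10.4% higher with hairpin 1, and 7.17% lower and 10.3% higher with hairpin 2. Probe sets of a gene share its RNA and are not separate evidence. Between hairpins, 15 were lower with hairpin 2 and 0 higher, against 7.73% and 4.91%. The 6 that did not pass were both of Mavs, that of Ticam1, that of Ifnb1, and the probe sets of Dhx58 and Tlr3 already named.

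The genes most like the 4 widest-ranging sensors were found by the root mean square difference over the 9 arrays, after setting each gene to 0 at its scrambled mean. Nearest to Zbp1 were Rsad2 (0.109 log2 units), Usp18 (0.205) and Oas2 (0.302). Ifih1 lay nearest to Mndal (0.132), Herc6 (0.176) and Ifit1bl2 (0.218). Closest to Dhx58 were Znfx1 (0.177), Xaf1 (0.194) and Rnf213 (0.224), and to Ddx58 Parp12 (0.109), Cxcl9 (0.13) and Parp9 (0.133).

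Other genes of the sensing pathways, from lists of signalling partners, included falls and rises. The falls were a larger share, and the rises a smaller share, than over all genes tested. Of 75 tested, hairpin 1 gave 19 falls and 15 rises, hairpin 2 gave 21 and 10, and 14 genes fell and 4 rose under both. Over all genes tested, 9.23% fell and 23.7% rose under hairpin 1, 13.3% and 21.5% under hairpin 2, and 4.87% fell and 13.7% rose under both; the counts of each list below stand beside the same shares. Their median log2 fold changes were -0.01 and -0.05, beside 0.07 and 0.02 for all genes. The counts with hairpin 1 varied with the array left out. Without the first scrambled repeat 22 genes were called in place of 34, with 14 falls and 8 rises. Without the second there were 15 and 8, and without the second repeat of hairpin 1 there were 19 and 9. Leaving out the first repeat of hairpin 1 gave 19 falls and 20 rises. Calls with hairpin 1 over all genes tested also dropped without the first scrambled repeat, from 4199 to 3080.

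In the RIG-I-like receptor list, hairpin 1 gave 9 falls and 3 rises among 30 tested genes, and hairpin 2 gave 10 and 5. Irf7, the transcription factor that amplifies interferon production, had means of 12.56 ± 0.0764, 10.74 ± 0.324 and 8.64 ± 0.195 (SD over 3 arrays) in scrambled, hairpin 1 and hairpin 2, which is a change of -1.82 and -3.92 log2 units. Ddx60, a helicase gene linked to RIG-I, changed by -2.71 and -3.57. Trim25, the ubiquitin ligase gene for RIG-I, fell (-0.42 and -1.68), as did Nlrc5, an activator of MHC class I genes (-1.32 and -1.45). Zc3hav1, the gene of the zinc finger antiviral protein, fell under hairpin 2 alone by the test (-1.23; hairpin 1 -0.18). The kinase gene Tbk1 fell with hairpin 1 (-0.34) and did not pass for hairpin 2 (-0.13), and the difference between hairpins did not pass (0.22, limma adjusted p = 0.0738). Irf3, the factor that TBK1 activates, differed by 0.12 and 0.00 and did not pass.

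In the list around Toll-like receptors, hairpin 1 gave 3 falls and 2 rises among 12 tested genes, and hairpin 2 gave 4 and 2. Tlr2, a receptor gene for bacterial lipopeptides, fell (-1.11 and -0.997), and so did Myd88, the adaptor gene of most receptors of the family other than TLR3 (-0.21 and -0.57). Irak2, a kinase gene downstream of MYD88, fell with hairpin 2 (-0.71), as did the chaperone gene Cnpy3 (-0.35). Ly96, which encodes the TLR4 coreceptor MD-2, rose with hairpin 2 by 1.04 and differed by 0.01 with hairpin 1.

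Genes of DNA sensing fell in a larger share than all genes tested, and rose in a smaller share. Among 17 tested, hairpin 1 gave 6 falls and 3 rises, and hairpin 2 gave 6 and 2. Sting1, the adaptor gene of cytosolic DNA sensing, rose from 6.81 ± 0.195 to 7.35 ± 0.0805 and 7.73 ± 0.09 (SD over 3 arrays; log2 fold changes 0.55 and 0.92, limma adjusted p = 0.000775 and 3.36e-06). Cgas, the DNA sensor gene upstream of it, fell (-0.26 and -0.38, limma adjusted p = 0.0252 and 0.00213). Ifi204 and Mndal, related genes of a family whose probes may not tell its genes apart, fell (Ifi204 -1.77 and -3.43, Mndal -1.95 and -3.20). Ifi203, of the same family, read 6.78 with scrambled and did not pass with either hairpin (-0.01 and -0.08). Samhd1, a nucleotide triphosphatase gene, fell (-0.89 and -1.96), as did Mre11a, a DNA repair nuclease gene (-0.42 and -0.77).

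In the list of double-stranded RNA binding, kinase and cell death partners, each hairpin gave 1 fall among 15 tested, with 7 rises under hairpin 1 and 1 under hairpin 2. The gene that fell was Mlkl, the executor of necroptosis, with changes of -0.70 and -1.02. Ripk3, which links ZBP1 to MLKL, read 6.54 with scrambled and did not pass (0.02 and 0.09). Of the other eIF2alpha kinase genes, Eif2ak1 and Eif2ak4 did not pass with either hairpin, and Eif2ak3 rose by 0.28 with hairpin 1. Adarb1, a second editing enzyme gene, rose under hairpin 1 (0.41) and missed the threshold under hairpin 2 (0.26), as did Ilf2 (0.30 and 0.22), and Stau2 rose with hairpin 2 (0.44).

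**Figure D3:**
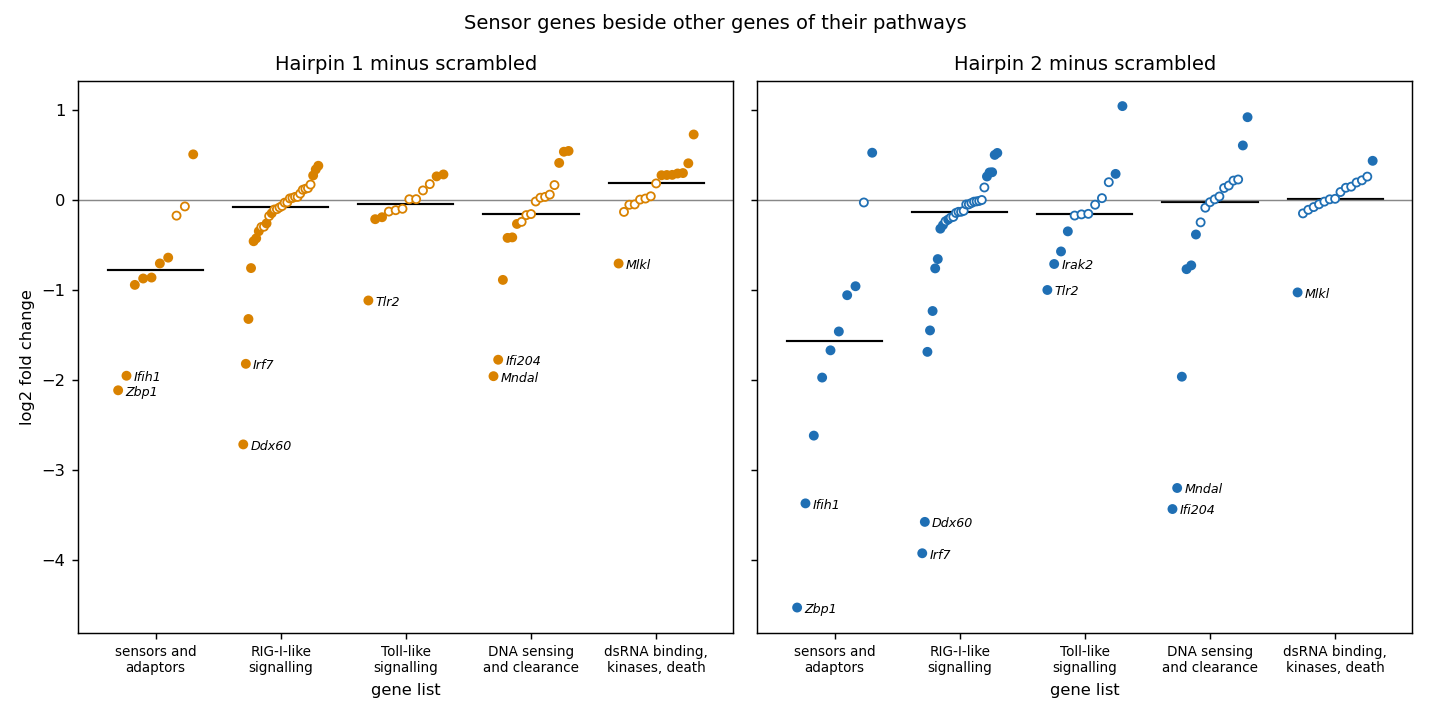
Log2 fold change against scrambled for hairpin 1 (left) and hairpin 2 (right), with the 10 sensor and adaptor genes beside 4 lists of other pathway genes; each point is a gene, filled where limma called it, ordered by value within its list, and bars are medians. The bars of the sensors, drawn over all 10 genes with Ifnb1, lie at -0.78 and -1.56, while the medians of the other lists lie between -0.15 and 0.19.

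Some markers of other cell types were called, where 33.0% of all genes tested were called with hairpin 1 and 34.8% with hairpin 2. Of 4 measured preadipocyte and fibroblast markers, Dlk1, Pdgfra and Thy1 rose under hairpin 1, and under hairpin 2 Pdgfra and Thy1 rose while Dlk1 fell. Their summed signal, as log2, ran from 11.3 to 11.6 with scrambled, 12.2 to 12.4 with hairpin 1 and 12.5 to 12.6 with hairpin 2. Their mean log2 level ran from 8.37 to 8.54, 9.06 to 9.23 and 9.05 to 9.19, so the hairpins overlapped on that measure. Cd34 lay below the signal filter. Of 9 measured leukocyte and macrophage markers, Laptm5 and Cd74 fell under each hairpin and Cd68 rose under hairpin 2, with summed signals of 10.5 to 11.2, 9.95 to 10.4 and 9.72 to 10.3. Laptm5 was the brightest of them (10.48, 9.26 and 8.66 on average), and the mean log2 level over the 9 markers ran from 6.30 to 6.43, 6.10 to 6.28 and 6.16 to 6.46, so hairpin 2 overlapped scrambled. Cd68 averaged 5.67 with scrambled, 5.65 with hairpin 1 and 6.84 with hairpin 2. Only its hairpin 2 mean reached the signal filter, so it was tested because of that group and the size of its rise is uncertain. Csf1r, Lyz2 and Cd3e did not pass with either hairpin, and the defining genes Ptprc, Adgre1 and Itgam lay below the signal filter. Of 4 endothelial markers 3 lay below it and 0 changed. The part of other cell types in the sensor falls was not tested.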

How the data were processed

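Total RNA of 9 samples was amplified with a NuGEN kit for small inputs and measured on an Affymetrix mouse array, per the labels' protocols and the platform table. The deposited values are log2 signals that the authors computed with RMA, per the submitters' processing notes; the version and genome build are not given in the sources used here. RMA subtracts background, equalizes arrays and summarizes probes, so a shift common to most genes would be mostly removed. A small one may remain, as array medians of the deposited values ran from 6.31 to 6.38. With equal array medians, the median log2 fold change with hairpin 1 went from 0.07 to 0.03. The rises called with hairpin 1 then went from 3023 to 2566. Of 45101 probe sets, 64 controls were left out, 34945 had 1 symbol, 932 several and 9160 none; only those with 1 symbol named genes. All 21 probe sets of the 10 genes matched a GRCm38.p6 gene table by Entrez identifier.

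A linear model with 3 groups was fitted to all 9 arrays (limma 3.58.1 in R 4.3.3, lmFit and eBayes with a mean-variance trend), on the brightest probe set of each gene, for 12735 genes at or above the 30th percentile. A second fit used all 45037 probe sets without a filter. Tests are two-sided, with Benjamini-Hochberg adjustment. With 3 arrays a group, their number limits the precision.

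The genes and lists were chosen with earlier results of these data known. By rule, the genes named beyond the 10 were Ebf1 and the 5 genes of each list with the smallest p for hairpin 2. The 3 nearest genes of the 4 widest-ranging sensors were also named by rule. Tbk1, Irf3, Cgas, Ifi203, Ripk3, Eif2ak1, Eif2ak4 and the cell markers were added for their role after their values were seen. Alternatives covered normalization, centring, filter, probe set choice, variance model, array weights, samples in the fit, the replicate block and each array left out.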

Additional observations from a re-analysis of the deposited data

How the results depend on the processing

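The counts of sensor genes called stayed within 1.5 times under all 18 alternatives: 7 to 9 with hairpin 1, 8 to 9 with hairpin 2 and 7 to 8 between the hairpins. Pathway genes called ran from 22 to 39 with hairpin 1 and 28 to 37 with hairpin 2 when arrays were left out in turn. Under the other alternatives they ran from 29 to 48 and from 30 to 40. The highest counts came with array weights, where the 48 with hairpin 1 were 24 falls and 24 rises. Of the single-gene values under alternatives, 523 kept direction and call, 4 became calls and 10 changed sign; the changes were in Mavs, Eif2ak2 with hairpin 1 and Ticam1 between hairpins, none of which was called as reported. With the mean of all probe sets, Mavs read 0.17 with hairpin 1, 0.15 with hairpin 2 and -0.0187 between hairpins. Array weights gave 0.0407 for Eif2ak2 with hairpin 1 and -0.0129 for Ticam1 between hairpins. With arrays left out, the values ran from -0.14 to 0.00924 for Eif2ak2, from -0.10 to 0.0705 for Mavs with hairpin 2 and from -0.0934 to 0.10 for Ticam1 between hairpins. Apart from the probe set mean, the cause was not tested. Same-numbered repeats had correlations of deviations from -0.293 to 0.25, and differently numbered repeats from -0.323 to 0.31. With so few arrays in a group, these correlations cannot decide whether the numbers pair arrays. With the replicate block, 8, 9 and 7 sensor genes and 35 and 31 pathway genes were called. Array weights raised all calls with hairpin 1 from 4199 to 7460, and between hairpins from 3702 to 5990. Signals near the filter, as for Ifnb1, limit what can be measured.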
